A study of Mus musculus with 18 samples.

Results

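Vip interneurons are GABAergic neurons that release the vasoactive intestinal peptide encoded by Vip. They arise in the caudal ganglionic eminence of the embryo, and in the cortex and hippocampus they are best known for inhibiting other interneurons, above all Sst cells, which frees pyramidal cells from inhibition. Subclasses are usually told apart by calretinin (Calb2), cholecystokinin (Cck) and choline acetyltransferase (Chat). In this series 553 of 138000 nuclei met a fixed rule for Vip interneurons, 199 of 71398 nuclei in the hippocampus (Hip) and 354 of 66602 in the prefrontal cortex (PFC). The rule kept nuclei with at least 200 genes and at most 10% mitochondrial unique molecular identifiers (UMIs, the counted RNA molecules), then asked for at least 2 UMIs of Gad1 and Gad2 together, at most 1 UMI of the excitatory gene Slc17a7, at least 2 UMIs of Vip, and more Vip than each of Pvalb, Sst and Lamp5. The nuclei were thus chosen by the measured UMIs of these 7 genes (Gad1, Gad2, Slc17a7, Vip, Pvalb, Sst and Lamp5), whose levels are given as a description only. The same rule with Pvalb, Sst or Lamp5 in place of Vip gave 339, 1532 and 523 nuclei, which served as the comparison.

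Both regions were taken from 9 male Kun Ming mice of 8 weeks, an outbred stock, and each tissue gave 1 library of single-nucleus RNA, 18 libraries in all. Of the mice, 3 were raised without any microbes in isolators (GF), 3 carried a normal flora free of specific pathogens (SPF), and 3 were germ-free until they were housed with SPF mice for the last 4 weeks (CGF, colonized germ-free). The mouse is the replicate, and its number pairs the regions. CGF mice grew up without microbes in early life, so they differ from SPF mice in history as well as in the time they carried a flora. Levels below are in CPM, the UMIs of a gene among 1000000 UMIs of the summed Vip nuclei of a library, and they are not divided by gene length, so they are compared between libraries and not between genes.

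The PFC libraries of SPF and CGF mice stood apart from the other 12 libraries, and every result that sets them against others carries this. They held 20336250 to 26949210 UMIs in all, against 49067853 to 71463928 in the other libraries. In their Vip nuclei the 6 transcripts that carry or resemble ribosomal RNA sequence (Gm42418, AY036118, Lars2, Cmss1, Camk1d and Gphn) summed to between 16601 and 36685 CPM, against 1268 to 2954 in the other libraries. The 13 genes of the mitochondrial genome summed to between 11678 and 32412 there, against 656 to 8090 elsewhere. The GF libraries of both regions overlapped in both sums, at 1268 to 1427 CPM in Hip and 1294 to 1428 in PFC for the first and 3173 to 7038 and 3833 to 6635 for the second, so differences between the regions are given for the GF mice alone beside the mean of the groups. They did not overlap in depth, with 49067853 to 56240654 UMIs in Hip and 59126586 to 71463928 in PFC. In the PFC a difference between GF mice and the other groups cannot be told apart from this difference between libraries.

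The Vip gene lies on chromosome 10, and the RefSeq bases just before its start (GRCm38.p6, plus strand, chr10:5638968-5639217) are shown because the level of its transcript is what defines these nuclei. Capitals mark TGACG, 1 arm of the palindrome TGACGTCA to which the cyclic AMP response factor CREB binds, a classic element of this gene. The same arm (TGACG, or CGTCA as it reads on the other strand) stood in the promoter of Cck, the other peptide gene described most below (minus strand, chr9:121495695-121495944).
Vip: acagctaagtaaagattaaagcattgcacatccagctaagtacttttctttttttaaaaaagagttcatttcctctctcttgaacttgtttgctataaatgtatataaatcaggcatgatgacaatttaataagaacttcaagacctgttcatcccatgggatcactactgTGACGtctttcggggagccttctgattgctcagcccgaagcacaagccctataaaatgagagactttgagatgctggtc
Cck: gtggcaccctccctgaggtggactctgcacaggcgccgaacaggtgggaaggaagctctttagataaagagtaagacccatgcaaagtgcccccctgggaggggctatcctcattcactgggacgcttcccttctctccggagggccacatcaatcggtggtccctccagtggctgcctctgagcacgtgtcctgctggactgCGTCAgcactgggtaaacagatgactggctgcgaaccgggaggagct
In a window of these 250 bases the arm was found in 5836 of 32851 mouse promoters, which is 17.8%, and the full palindrome in 508, or 1.55%. Both matches are descriptions of the letters only. Neither strand held the arm in the same window of Npy, Tac2, Adarb2 or the 2 promoters of Prox1 in the table.

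Genes the rule did not use went with the label for the most part. Shares in Vip nuclei alone do not set these nuclei apart from other types, and levels in those types are given below. Adarb2, an RNA-editing family gene that marks interneurons from the caudal ganglionic eminence, was detected in 98.0% of Vip nuclei in Hip and 96.9% in PFC. Synpr, a synaptic vesicle protein, was detected in 97.0% and 94.9%, and the transcription factor Prox1 in 72.9% and 61.6%. Lhx6, the factor that marks interneurons from the medial ganglionic eminence, was detected in 2 of 199 Vip nuclei in Hip and 6 of 354 in PFC. Htr3a, the serotonin receptor channel used to define this lineage, was detected in 18.1% and 12.4%. Chat was seen in 8 nuclei of Hip and 20 of PFC, and Crispld2, a gene of some Vip subtypes, was at 0 in every library.

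In Hip 61 of the 199 nuclei had exactly 2 Vip UMIs and 17 had 10 or more, while 166 further GABAergic nuclei had exactly 1 and no UMI of Pvalb, Sst or Lamp5. In PFC 87 of the 354 had exactly 2 Vip UMIs and 72 had 10 or more, and 142 further nuclei had exactly 1 and none of the other 3 markers. The demand for Gad1 and Gad2 alone left out 62 nuclei of Hip and 191 of PFC with 1 such UMI, and 67 and 295 with none. Those with none or 1 UMI were shallower, with medians of 4362 (Hip) and 3066 (PFC) UMIs, where Vip nuclei had 5808 and 4657. In PFC they numbered 151, 136 and 199 in SPF, CGF and GF mice, beside 74, 67 and 213 Vip nuclei. In Hip they numbered 29, 35 and 65, beside 50, 52 and 97. Their median library level in PFC was 1248 CPM for Vip and 10662 for Adarb2, against 1260 and 16280 in Vip nuclei. In Hip it was 481 and 7815, against 568 and 18854. The Gad minimum thus left out a larger part in PFC of SPF and CGF mice than of GF mice. The Slc17a7 limit alone left out 36 and 78 nuclei, of which 24 and 49 had exactly 2 UMIs. A doublet score marked 10 and 17 Vip nuclei as likely doublets, which were kept, and no barcode was a Vip nucleus in more than 1 library.

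Vip UMIs were also found in excitatory nuclei, which should lack the gene. At least 2 Vip UMIs were found in 0 to 0.658% of excitatory nuclei of the Hip libraries and 0.26 to 1.34% of the PFC libraries, although these nuclei were deeper (library medians of 11036 to 19225 and 5626 to 13642 UMIs). At least 1 Vip UMI was found in 1.99 to 5.41% of them in Hip, 3.46 to 5.39% in PFC of SPF and CGF mice, and 10.8 to 11.8% in PFC of GF mice, where they were deepest within that region. The part of free RNA in the Vip shares of the groups was not tested. Markers of other cells were present in Vip nuclei. The 12 excitatory markers, a list that also holds Slc17a7, which the rule used, and Prox1, summed to between 837 and 1177 CPM in Hip of SPF and CGF mice, between 1462 and 1496 in Hip of GF mice, and between 999 and 1525 in PFC. The 8 astrocyte markers summed to between 226 and 724 CPM in Hip and between 243 and 569 in PFC. The 8 microglial markers summed to between 65.5 and 137 and between 25.7 and 135. The 8 oligodendrocyte markers ranged from 160 to 924 in Hip and from 26.3 to 247 in PFC, with 351 to 924 in the CGF mice, 160 to 398 in the SPF mice and 182 to 302 in the GF mice of Hip.

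Vip nuclei made up a larger share of GABAergic nuclei in PFC than in Hip. In Hip the shares were 2.46, 3.11 and 1.78% in SPF mice, 2.74, 3.18 and 1.55% in CGF mice, and 5.22, 2.54 and 8.18% in GF mice. In PFC they were 5.32, 8.16 and 6.50%, then 4.11, 4.87 and 6.49%, and then 7.99, 8.67 and 7.39% in the same order. The share was 6.61% ± 1.59 in PFC and 3.42% ± 2.07 in Hip (SD, n = 9), a difference of 3.19 percentage points, with PFC higher in 8 of 9 mice (exact permutation test by sign flips, two-sided p = 0.0078125). The exception was GF mouse 7, in which Hip exceeded PFC. In GF mice alone the mean share was 8.02% in PFC and 5.31% in Hip, and that difference was not tested.

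**Figure D1:**
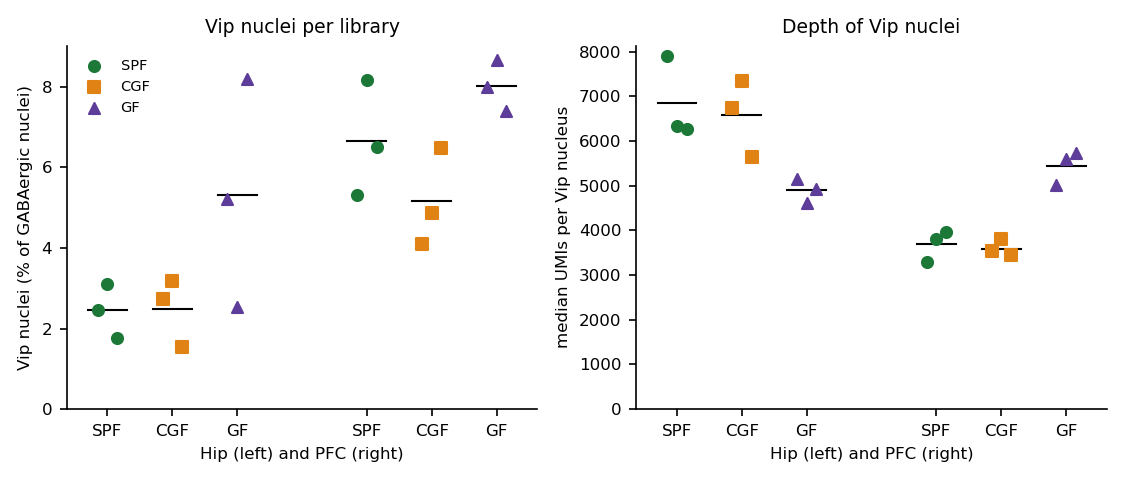
Share of GABAergic nuclei that met the rule for Vip interneurons (left, percent) and median UMIs per Vip nucleus (right) in each of the 18 libraries; points are mice and horizontal bars are group means. GF mice spread from 2.54 to 8.18% in Hip, and the Vip nuclei of SPF and CGF mice had the fewest UMIs in PFC, with library medians of 3288 to 3974.

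The groups overlapped in Hip, where the GF mean was 2.86 points above the SPF mean (exact permutation test over the 3 groups, p = 0.153571), and CGF and SPF mice differed by 0.043 points. In PFC the GF mean was 1.36 points above SPF and 2.86 points above CGF (exact permutation test over the 3 groups, p = 0.0785714). No test of 3 against 3 mice can go below 0.1. The rule counts UMIs, and depth differed between groups, so nuclei were also thinned to 3000 UMIs before the rule was applied. The regions then differed by 4.22 points (exact permutation test, p = 0.0078125), the Hip groups by 3.16 points between GF and SPF (exact permutation test over the 3 groups, p = 0.0178571), and the GF minus SPF difference in PFC was −0.121 points (exact permutation test over the 3 groups, p = 0.996429). Nuclei under 3000 UMIs drop out there. In PFC 10564 of 19948 nuclei remained in SPF mice, 9917 of 22087 in CGF mice and 18634 of 24567 in GF mice. Thinned to 1500 UMIs, the GF mean in PFC was 0.806 points above SPF and 2.85 above CGF (exact permutation test over the 3 groups, p = 0.0321429). The 2 depths of thinning thus gave different results in PFC. Single mice moved the unthinned differences in both directions. Without GF mouse 6 the unthinned Hip difference between GF and SPF was 4.25 points (exact permutation test over the 3 groups, p = 0.0321429). Without GF mouse 7 it was 1.43 points (exact permutation test over the 3 groups, p = 0.417857). In PFC the difference was 2.11 points without SPF mouse 31 (exact permutation test over the 3 groups, p = 0.0464286). It was 0.686 points without SPF mouse 30 (exact permutation test over the 3 groups, p = 0.0678571). For GF against SPF alone the exact permutation test gave p = 0.1 or more in each of these cases.

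Against Pvalb, Sst and Lamp5 nuclei of the same libraries, Vip nuclei of both regions had more Adarb2, Prox1, Sema5b, Sorcs3 and Synpr and less of the medial eminence gene Nxph1. In Hip they also had more Npas1 and less Lhx6, which did not pass against all 3 types in PFC. In Hip 319 of 4234 genes tested differed from each of the 3 other types in the same direction (7.53% of those tested), 189 higher (4.46%) and 130 lower (3.07%). In PFC 373 of 5081 did (7.34%), 232 higher (4.57%) and 141 lower (2.78%). Pvalb nuclei were the most distant, with 1345 genes called in Hip (31.8%; 16.2% higher and 15.6% lower in Vip nuclei) and 1617 in PFC (31.8%). Against Sst nuclei 842 genes passed in Hip (19.9%; 10.7% higher and 9.23% lower) and 1115 in PFC (21.9%; 11.5% and 10.5%). Against Lamp5 nuclei 915 passed in Hip (21.6%; 10.7% and 10.9%) and 1042 in PFC (20.5%; 10.1% and 10.5%). The test was edgeR's quasi-likelihood test with the library as a block and Benjamini-Hochberg adjustment at 0.05. The fold changes given for it are the means of the 3 comparisons on the log2 scale, and the adjusted p is the largest of the 3.

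Adarb2 stood at 9466 to 22754 CPM in Vip nuclei of Hip and 13067 to 19576 in PFC. Lamp5 nuclei held 2416 to 7878 and 3415 to 6866, while Sst nuclei held at most 2165 and Pvalb nuclei at most 1517. No Vip library overlapped with a library of another type (log2 fold change 4.92 in Hip, edgeR adjusted p = 3.56e-06; 4.49 in PFC, edgeR adjusted p = 2.06e-05). Prox1, a homeobox factor that Vip cells keep in adult life, ranged from 223 to 357 in Hip and 181 to 447 in PFC, above every library of the other types (log2 fold change 3.43 and 4.03). Sema5b, a transmembrane semaphorin that guides axons, ranged from 109 to 242 in Hip and 116 to 253 in PFC, and no library of another type exceeded 18.8 in Hip or 31.7 in PFC (log2 fold change 5.28 and 4.04). Sorcs3, a sorting receptor of neurons, was 3.75 and 4.08 higher on the log2 scale, and Plpp4, a lipid phosphatase, 4.12 and 4.35.

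Npas1, a basic helix-loop-helix factor, stood at 107 to 174 CPM in Vip nuclei of Hip and at no more than 89.6 in any library of the other types (edgeR adjusted p = 2.47e-07). In PFC Npas1 stood at 120 to 462 in Vip nuclei and at 97.3 to 450 in Sst nuclei, and it did not pass against all 3 types. The adrenergic receptor Adra1b passed in both regions (log2 fold change 3.24 and 2.96), with 94.8 to 219 CPM in Hip and 141 to 290 in PFC. Wnt5b, a secreted Wnt ligand, was higher by 3.42 in Hip and by 4.08 in PFC. Of the 14 listed factors and lineage genes of the caudal eminence, 5 of 9 tested were higher in Hip and 6 of 10 in PFC, with none lower. Their medians were 1.73 and 1.84 on the log2 scale, against 0.02 and −0.01 over all genes tested. Of 24 listed genes of Vip identity 5 of 7 tested were higher in Hip than in each other type and 1 was lower. In PFC 7 of 11 were higher and 0 lower. Over all genes tested 4.46% were higher and 3.07% lower in Hip, and 4.57 and 2.78% in PFC. Of 12 excitatory markers, a list that also holds Prox1, 2 of 4 tested were higher in Hip and 1 of 5 in PFC.

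**Figure D2:**
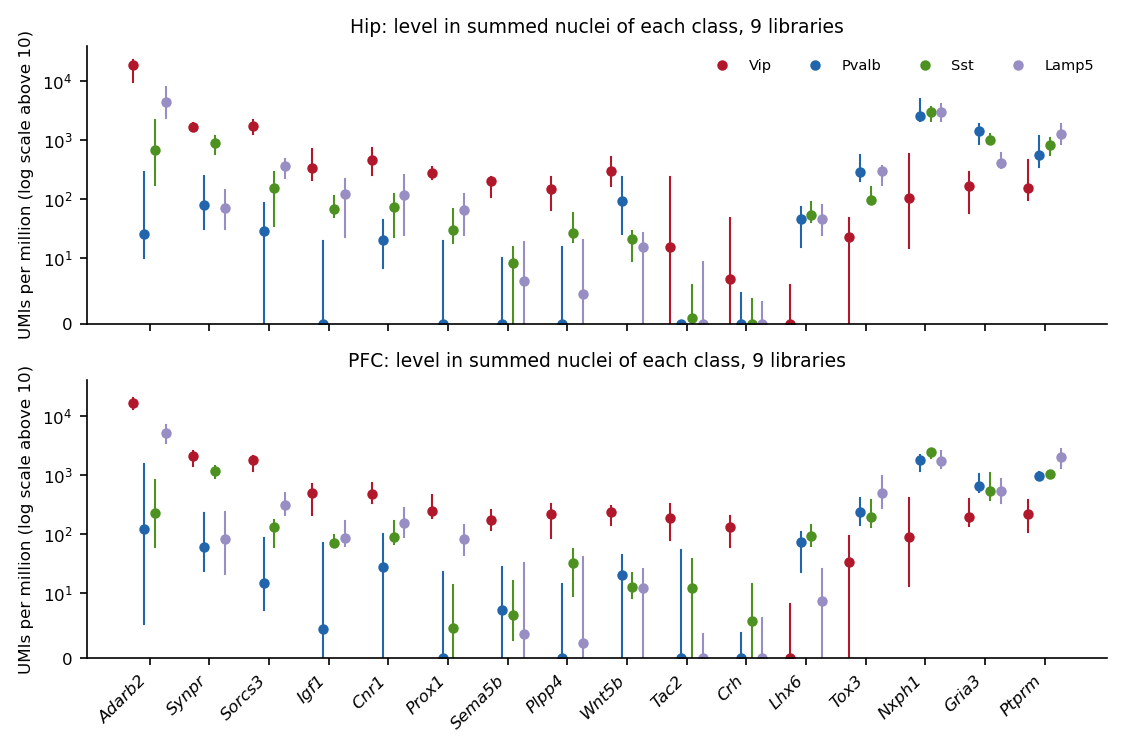
Levels of 16 genes in summed Vip, Pvalb, Sst and Lamp5 nuclei of Hip (upper) and PFC (lower), in CPM on an axis that is logarithmic above 10 and linear below; points are medians over 9 libraries and bars run from the lowest to the highest library. Adarb2, Prox1 and Sema5b stand above the other types in both regions, Tac2 and Crh in PFC, and Lhx6 is at 0 in most Vip libraries.

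Of the 13 listed factors and lineage genes of the medial eminence, 3 of 8 tested were lower in Vip nuclei than in each other type in Hip, namely Lhx6, Nxph1 and Sox6, and 1 of 10 in PFC, Nxph1, where 3.07 and 2.78% of all genes tested were lower. None was higher, and the single call in PFC is no result about the list. Lhx6 was at 0 in 7 of 9 Vip libraries of Hip and at 5.95 and 3.71 in the others, whereas Sst nuclei held 41.7 to 89.8 and Lamp5 nuclei of Hip 25.2 to 79.0 (log2 fold change −4.70, edgeR adjusted p = 1.48e-08). In PFC Lamp5 nuclei held little Lhx6 themselves, 0 to 25.4, and Lhx6 did not pass against all types there. Nxph1, a secreted ligand of neurexins, had log2 fold changes of −4.01 and −3.54 in the 2 regions. Its level was 13.1 to 589 in Vip nuclei and at least 1151 in every library of the other types. The other genes named by their low level were Coro6, an actin-binding protein (log2 fold change −3.32 in Hip and −3.00 in PFC), the nuclear factors Tox3 (−3.19 and −2.77) and Tox2 (−2.90 and −2.66), and the receptor phosphatase Ptprm (−2.26 and −2.41).

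Synpr was higher by 3.16 in Hip and 3.46 in PFC on the log2 scale, the growth factor Igf1 by 3.45 and 3.48, and the cannabinoid receptor Cnr1 by 3.11 and 2.59. Crh, the corticotropin-releasing hormone, and Tac2, the precursor of neurokinin B, passed in PFC with log2 fold changes of 5.77 (edgeR adjusted p = 1.07e-18) and 5.04 (edgeR adjusted p = 2.07e-15). Cck was higher by only 1.14 and 1.09. Glutamate receptors were split: Grm8 (2.74 in Hip and 2.56 in PFC) and Grm7 (2.32 and 1.79), presynaptic receptors that dampen release, were higher, and Gria3 (−2.32 and −1.47), an AMPA receptor subunit, and Grm5 (−1.26 and −0.82) were lower. In all, 5 of 21 listed glutamate receptor genes tested were higher and 4 lower in Hip, and 5 and 3 in PFC, where 4.46 and 3.07% of all genes tested were higher and lower in Hip and 4.57 and 2.78% in PFC. Of 13 GABA receptor genes tested in Hip none passed, and of 12 in PFC Gabrd alone was lower (−1.71). Among channels the potassium channel Kcnt2 was higher by 2.97 and 3.08, and Htr2c, a serotonin receptor, by 2.60 and 2.00. Its level in Hip was 3159 CPM in CGF mouse 17 and 162 to 386 in the other 8 mice. Without the library block 234 genes passed in PFC in place of 373, and with each Vip nucleus and each nucleus of the other types thinned to 1500 UMIs 108 passed in Hip and 153 in PFC.

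UMIs of the subclass markers Cck and Calb2 were also found in nuclei of other types. A Cck UMI was found in 85.6% of Vip nuclei of GF mice in Hip and 85.4% in PFC, but also in 78.1 and 88.9% of their Sst nuclei and in 1131 of 1229 and 1921 of 2008 of their excitatory nuclei. Vip nuclei of GF mice had medians of 4989 and 5601 UMIs, Sst nuclei of 7037 and 7112, and excitatory nuclei of 11471 and 13214. In SPF mice a Cck UMI was found in 56.0 and 40.5% of Vip nuclei and in 55.8 and 21.3% of Sst nuclei. A Cck UMI in a nucleus is therefore not read as a sign of the Cck subclass, and the Cck levels below are those of summed nuclei. Calb2 was detected in 25 of 199 Vip nuclei in Hip (12.6%) and 28 of 354 in PFC (7.91%), against 5.89 and 7.85% of Sst nuclei and 4.45 and 2.15% of excitatory nuclei, and its level in Vip nuclei lay between 4.95 and 64.2 CPM.

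Between the regions, the peptide genes Npy, Crh and Tac2 and the chemokine gene Cxcl14 were higher in PFC on the mean of the 3 groups. The part of free RNA in these differences was not tested. That contrast called 983 of 3506 genes (28% of those tested), 487 higher (13.9%) and 496 lower (14.1%) in PFC. In GF mice 11 genes passed (0.314%), 4 higher (0.114%) and 7 lower (0.2%). In SPF mice 637 passed (18.2%), 9.3% of those tested higher and 8.87% lower, and in CGF mice 626 (17.9%), 8.67% higher and 9.18% lower. A fit of the GF libraries alone called 14.

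Npy, neuropeptide Y, was near 0 in Vip nuclei of Hip. Its level was 0, 6.84 and 0 CPM in SPF mice, 0 in each CGF mouse, and 0, 23.2 and 14.8 in GF mice. In PFC it was 101, 182 and 161 in SPF mice, 68.0, 158 and 103 in CGF mice, and 41.2, 107 and 41.3 in GF mice. Every PFC library lay above every Hip library (log2 fold change 5.05 ± 0.56 SE, edgeR adjusted p = 1.14e-07). In CGF mice 27 UMIs stood against 0, which is at least 13.5-fold, and in SPF mice 45 against 1, a ratio of 62.4 with a 95% exact counting interval of 10.6 to 2519. In GF mice the log2 fold change was 2.40 ± 0.64 and did not pass (edgeR adjusted p = 0.17). Npy is also used as a marker of Lamp5 nuclei. Of 12 listed markers of other interneuron types, 2 were tested between the regions and 1 was higher in PFC. No UMI of Pvalb, Sst or Lamp5 was found in 133 of 199 Vip nuclei of Hip and 223 of 354 of PFC. The part of other interneuron types in the Npy difference was not tested.

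Crh was 0, 6.84 and 48.7 CPM in Hip of SPF mice, 0, 5.95 and 0 in CGF mice, and 49.0, 11.6 and 48.3 in GF mice. In PFC it was 130, 199 and 131, then 146, 105 and 180, and then 124, 131 and 60.0. The regions did not overlap (log2 fold change 3.24 ± 0.39 SE, edgeR adjusted p = 2.25e-07), and the share of Vip nuclei with a Crh UMI was 7.04% in Hip and 32.2% in PFC. In GF mice alone the log2 fold change of Crh was 1.26 ± 0.42 (edgeR adjusted p = 0.35).

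Tac2 was 15.2, 13.7 and 8.11 CPM in Hip of SPF mice and 15.8, 0 and 22.0 in CGF mice, but 87.1, 34.8 and 234 in GF mice. In PFC it ranged from 101 to 192 in SPF mice, from 118 to 295 in CGF mice and from 76.9 to 315 in GF mice. Its region difference was 3.65 in SPF and 4.07 in CGF mice on the log2 scale, and 0.28 ± 0.40 in GF mice, which did not pass (edgeR adjusted p = 0.961). Cxcl14 was at 0 to 7.62 in Hip of SPF and CGF mice and 27.2, 11.6 and 37.1 in GF mice, against 14.5 to 257 in PFC (log2 fold change 4.21 ± 0.47, edgeR adjusted p = 8.79e-08; 1.27 ± 0.52 in GF mice). Penk, the enkephalin precursor, was higher in PFC by 1.08 ± 0.36, with −0.02 in GF mice. In GF mice alone none of Npy, Crh, Tac2, Cxcl14 and Penk passed.

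**Figure D3:**
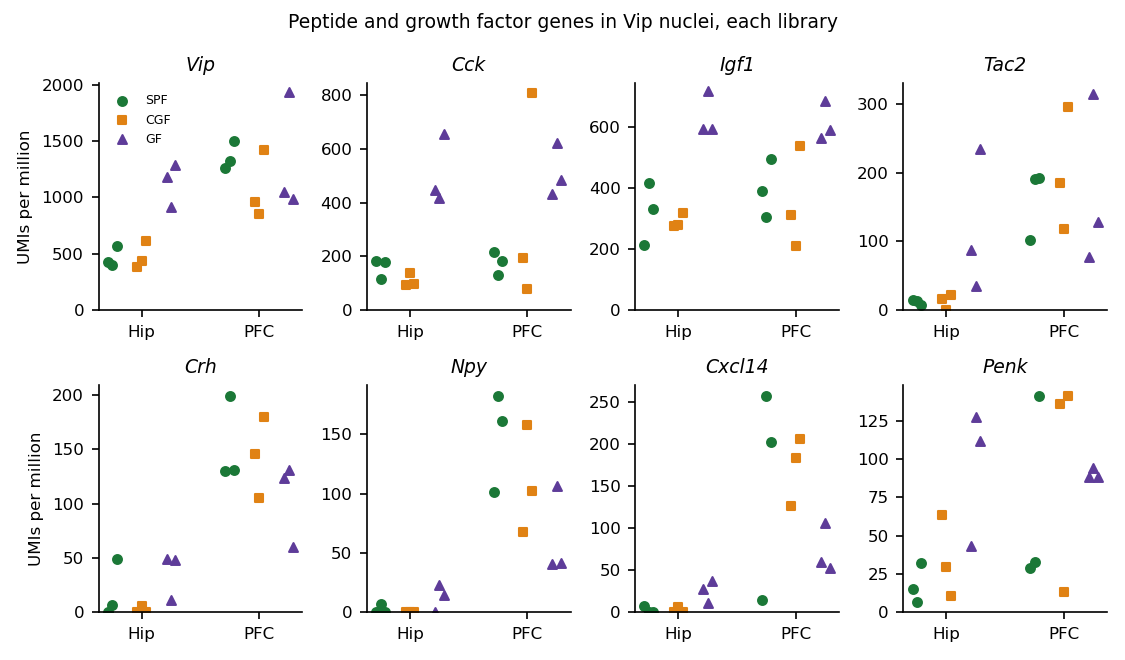
Levels of 8 peptide and growth factor genes in the summed Vip nuclei of each library, in CPM on linear axes; each point is 1 mouse, by region and group. Crh and Npy are separate between the regions, and Cck and Igf1 are higher in GF mice than in SPF mice in both regions.

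Genes outside the peptides also separated all PFC from all Hip libraries. Camk2n1, an inhibitor of the kinase CaMKII, was higher in PFC by 1.88 ± 0.16 on the log2 scale (0.69 ± 0.23 in GF mice). Clstn2, a synaptic calsyntenin, was higher by 1.46 ± 0.16 (0.72 ± 0.26 in GF mice), the receptor phosphatase Ptprg by 1.20 ± 0.12 (0.77 ± 0.20), and the heparan sulfate enzyme Hs6st3 by 0.94 ± 0.12 (0.59 ± 0.20). Lower in PFC were the kainate receptor subunit Grik1 (−1.59 ± 0.18, and −0.98 ± 0.29 in GF mice), Tmtc2 (−1.56 ± 0.19, and −0.74 ± 0.27), and the ephrin receptor Epha6 (−1.45 ± 0.13, and −0.59 ± 0.20). The values in GF mice had the same sign in each of these and did not pass there.

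**Figure D4:**
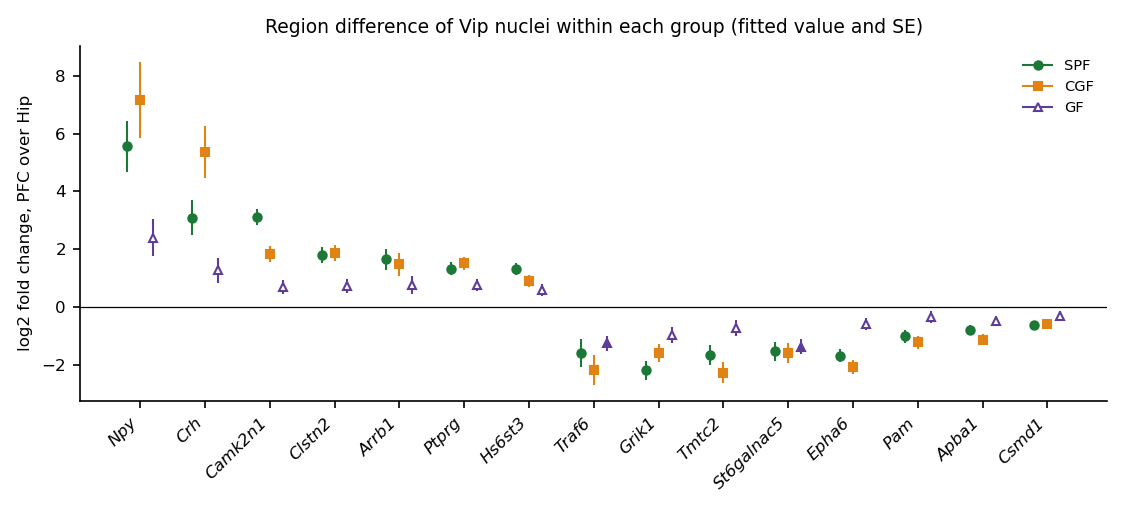
Fitted log2 fold change of PFC over Hip in Vip nuclei within SPF, CGF and GF mice for the 15 genes named by the region rule; bars are standard errors, and filled markers passed at an adjusted p of 0.05. In GF mice 2 of these genes, Traf6 and St6galnac5, passed.

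Of the 11 genes that passed in GF mice some differed the same way in the other groups and some did not. Efna5, an ephrin that repels growing axons, was at 43.5, 58.0 and 40.8 CPM in Hip of GF mice and 151, 146 and 193 in PFC, without overlap (log2 fold change 1.85 ± 0.32, edgeR adjusted p = 0.00424). Pooled over the libraries of a group, it was at 35.0 in Hip and 79.6 in PFC of SPF mice, and at 67.4 and 77.8 in CGF mice. Efna5 thus reached the count minimum in PFC of GF mice, the group in which it was highest. The formin Fmn1 (1.36 ± 0.29), the cadherin Cdh12 (1.23 ± 0.28) and Kctd16 (0.87 ± 0.18), an auxiliary subunit of GABA-B receptors, were higher in PFC. Traf6, a signalling adaptor, had Hip levels of 125, 255 and 141 and PFC levels of 71.4, 74.3 and 56.3 CPM (−1.26 ± 0.27, edgeR adjusted p = 0.0222). St6galnac5, a sialyltransferase, had 278, 244 and 264 against 115, 81.8 and 109 (−1.38 ± 0.27, edgeR adjusted p = 0.017). Its neighbour Pigk (−1.33 ± 0.25) overlaps it on the opposite strand, so reads of the 2 genes may not be told apart. Tmsb4x (−1.35 ± 0.27), Fth1 (−1.11 ± 0.24) and Hpca (−1.66 ± 0.35) were also lower in PFC. Ttr, the transthyretin of the choroid plexus, had 0, 2900 and 616 CPM in Hip of the 3 GF mice, whose PFC values were 0, 2.48 and 1.88, so GF mouse 6 set its size. In SPF mice Ttr had 115 UMIs in Hip and 0 in PFC, at least 27.6-fold higher in Hip. Traf6, St6galnac5 and Tmsb4x were lower in PFC in SPF and CGF mice too. Fmn1 went the other way in these groups, with −0.55 ± 0.29 in SPF mice, which did not pass, and −1.08 ± 0.37 in CGF mice, which did. Fth1 had 0.15 ± 0.35 and 0.60 ± 0.37 and Hpca 0.53 ± 0.43 and 0.36 ± 0.61 in SPF and CGF mice, and none of these passed. Cdh12 (−0.32 ± 0.32) and Kctd16 (−0.18 ± 0.18) were near or under 0 in CGF mice and did not pass there. The count of 11 fell to 5 without GF mouse 5, 3 without GF mouse 6 and 0 without GF mouse 7.

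Among GABA receptor and adhesion genes more were lower than higher in PFC on the mean of the groups. Of 11 GABA receptor genes tested 6 were lower, such as Gabrb2 (−0.92 ± 0.13), and 1, Gabbr2, was higher. Of 33 synaptic adhesion genes 16 were lower, 3 higher and 14 did not pass, where 14.1% of all genes tested were lower and 13.9% higher. In GF mice none of these GABA receptor genes passed, with a median of −0.05, and of the adhesion genes Cdh12 alone passed. Other lists moved with the contrast in the same libraries. On the mean of the groups 11 of 11 mitochondrial genes and 6 of 6 ribosomal RNA-linked transcripts tested were higher in PFC, with medians of 2.18 and 2.17, and 2 of 2 oligodendrocyte markers tested were lower, with a median of −2.54. Of the mitochondrial genes and ribosomal RNA-linked transcripts none passed in GF mice. The part of these lists in the results was not tested.

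In Hip, Vip nuclei of GF mice had more Cck, Igf1, Hspa5, Fth1 and Malat1 transcripts than those of SPF mice. The test called 199 of 2899 genes (6.86% of those tested), 143 higher (4.93%) and 56 lower (1.93%) in GF mice. Against CGF mice it called 282 (9.73%), 6.28% of those tested higher and 3.45% lower. In that comparison 2 of 2 oligodendrocyte markers tested were lower in GF mice, with a median of −2.11. Their part in the results was not tested. The median Vip nucleus of the Hip libraries held 4620 to 5149 UMIs in GF mice and 5647 to 7911 in the others. The GF libraries of Hip also held 341 to 481 excitatory nuclei, against 151 to 273 in the others. In Hip too, a difference between GF mice and the others cannot be told apart from these differences between libraries.

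Cck rose in GF mice and stood apart from both other groups. Its level in Hip was 183, 116 and 179 CPM in SPF mice, 94.8, 137 and 98.8 in CGF mice, and 446, 418 and 657 in GF mice (GF over SPF, log2 fold change 1.75 ± 0.26, edgeR adjusted p = 0.000593; GF over CGF 2.21 ± 0.27, edgeR adjusted p = 0.000147). Cck levels of the other nuclei of these libraries moved the same way, with 199 to 217 in Sst nuclei of GF mice against 52.9 to 159 in SPF mice, and 262 to 282 in excitatory nuclei against 53.6 to 90.5, and the part of free RNA in the Cck difference was not tested. Igf1, a growth factor that Vip cells secrete in the cortex, was 213, 418 and 333 in SPF mice, 276, 280 and 318 in CGF mice, and 593, 719 and 594 in GF mice, again without overlap (1.01 ± 0.23, edgeR adjusted p = 0.0123). The level of Vip itself, which the rule used, was 427, 397 and 568 in SPF mice, 379, 441 and 615 in CGF mice, and 1181, 916 and 1284 in GF mice.

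The genes named by the size of their rise in Hip were Timm8b, Pnpla7, Hspa5, Caly, Fth1, Rps20, Mt3 and Rpl14. Pooled over the libraries of a group, all but Fth1 stood at 7.49 to 49.3 CPM in SPF and CGF mice. In GF mice the same genes stood at 89.0 to 193. They thus reached the count minimum largely through the GF libraries and could hardly be called as falls. Hspa5, the chaperone BiP of the endoplasmic reticulum, was at 15.2, 41.1 and 32.5 in SPF mice and 142, 128 and 208 in GF mice (log2 fold change 2.49 ± 0.40, edgeR adjusted p = 0.00111). Caly, calcyon, which acts in vesicle recycling, was 22.9, 13.7 and 32.5 in SPF mice and 125, 128 and 123 in GF mice (2.47 ± 0.45). Fth1, the ferritin heavy chain, was 91.4, 151 and 252 in SPF mice and 528, 835 and 861 in GF mice (2.21 ± 0.31, edgeR adjusted p = 0.000489). Timm8b, a chaperone of mitochondrial import, had 55 UMIs in GF mice and 3 in SPF mice, a ratio of 13.6 with a 95% exact counting interval of 4.42 to 68.1.

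Of 83 listed cytosolic ribosomal protein genes 6 had enough UMIs to be tested in Hip, and of 74 nuclear genes of oxidative phosphorylation 15 did. A gene could pass that filter by its level in GF mice alone, so no count of calls is given for these lists. Rps20, a protein of the small ribosomal subunit, was at 15.2, 41.1 and 0 CPM in SPF mice, 15.8, 23.8 and 32.9 in CGF mice and 103, 81.2 and 81.7 in GF mice, the last from 19, 7 and 22 UMIs. Of the respiratory chain genes Ndufa4 (1.67 ± 0.32) and Cox8a (1.38 ± 0.30) were higher. Malat1, a nuclear RNA, was 20286 to 22830 in SPF mice, 23851 to 26736 in CGF mice and 47089 to 49656 in GF mice (1.25 ± 0.10). Of 31 adhesion genes 3 were lower, Nrxn3 (−0.57 ± 0.11), Lsamp (−0.63 ± 0.14) and the neuregulin receptor Erbb4 (−0.46 ± 0.12), and none was higher, where 1.93% of all genes tested were lower. No GABA receptor gene of 10 and no glutamate receptor gene of 19 passed.

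Among the genes that fell in GF mice in Hip were Slit1, a repellent of axons, with 206, 164 and 138 in SPF mice and 65.3, 34.8 and 40.8 in GF mice (−1.75 ± 0.35, edgeR adjusted p = 0.00504), and Upp2, a uridine phosphorylase, with 351, 479 and 568 against 180, 116 and 100 (−1.77 ± 0.26). Fmn1 fell by 1.93 on the log2 scale, Mob3b by 1.60, Fbln2 by 1.60 and Nos1, the neuronal nitric oxide synthase, by 1.55. AC149090.1, a gene on a scaffold outside the chromosomes, was 251, 767 and 130 in SPF mice, 47.4, 125 and 32.9 in CGF mice and 38.1, 104 and 63.1 in GF mice (−2.58 ± 0.53).

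A marker of excitatory neurons moved with this comparison: Nrgn, neurogranin, was at 145, 233 and 325 CPM in SPF mice, 111, 155 and 253 in CGF mice and 506, 522 and 535 in GF mice (GF over SPF, log2 fold change 1.20 ± 0.27, edgeR adjusted p = 0.0115), and in PFC it was higher in GF than in SPF mice by 1.03 ± 0.24. In Hip it was 1 of the 3 excitatory markers tested, and the others did not pass. Its part in the other results was not tested. Of the transcripts tied to library quality in Hip, 2 of 5 ribosomal RNA-linked transcripts were lower in GF mice, and none of 8 mitochondrial genes passed. Leaving out 1 mouse gave 117 calls for GF mouse 6, 96 for GF mouse 7 and 115 for SPF mouse 30, and Nos1, Rps20 and Zfp827 lost their call when most single mice were left out. With a trend on gene length and GC content removed 60 genes passed, and Timm8b, Rps20, Mt3, Rpl14, Zfp827 and Nos1 did not pass.

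In PFC, Cck and Igf1 of Vip nuclei were again higher in GF than in SPF mice, and factors of interneuron identity such as Dlx1, Nfix and Npas1 were lower. The test called 588 of 2394 genes (24.6% of those tested), 281 higher (11.7%) and 307 lower (12.8%). Against CGF mice it called 520 (21.7%), 10.6% of those tested higher and 11.2% lower, and without GF mouse 7 that count was 332. Both comparisons set GF libraries against the libraries that stood apart, so the effect of the flora and the difference between libraries cannot be told apart. All 6 ribosomal RNA-linked transcripts and all 11 mitochondrial genes tested were lower in GF mice, with medians of −4.06 and −2.01.

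Cck was 217, 133 and 182 CPM in PFC of SPF mice and 434, 622 and 484 in GF mice (log2 fold change 1.68 ± 0.44, edgeR adjusted p = 0.00912). In CGF mice it was 194, 79.1 and 809, and CGF mouse 19 exceeded every other library, so GF did not pass against CGF. Sst nuclei of PFC held 48.9 to 101 in SPF mice and 257 to 325 in GF mice. Igf1 was 391, 307 and 494 in SPF mice, 311, 210 and 539 in CGF mice and 566, 686 and 589 in GF mice, without overlap (GF over SPF 0.74 ± 0.24, edgeR adjusted p = 0.0328). Tmsb4x, thymosin beta 4, which binds actin monomers, rose by 1.98 ± 0.33 in PFC and by 1.95 ± 0.30 in Hip.

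Dlx1, a homeobox factor of interneurons, was 188, 191 and 252 in SPF mice, 282, 144 and 270 in CGF mice, and 85.2, 71.8 and 71.3 in GF mice of PFC (−1.37 ± 0.27, edgeR adjusted p = 0.00112). Npas1 was 240 to 420 in SPF mice and 120 to 173 in GF mice. Nfix fell by 1.30 on the log2 scale and Zbtb16 by 0.88, so 4 of 9 tested factors of the caudal eminence list were lower and none higher. In Hip none of these 4 passed, and Adarb2 was the 1 factor of 10 that was lower in GF mice (−0.56 ± 0.14). Of the receptor lists, 4 of 9 GABA receptor genes were higher, such as Gabrb2 (0.84 ± 0.23), and none lower, while 3 of 19 glutamate receptor genes were higher, such as Grm5 (1.06 ± 0.21), and 3 lower, such as Grik4 (−0.87 ± 0.27), a share near that of all genes tested in both directions (11.7 and 12.8%). Of 32 adhesion genes 12 were higher and 2, Nrxn2 and Nlgn2, lower, with a median of 0.53 over the list and 0.00 over all genes tested.

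**Figure D5:**
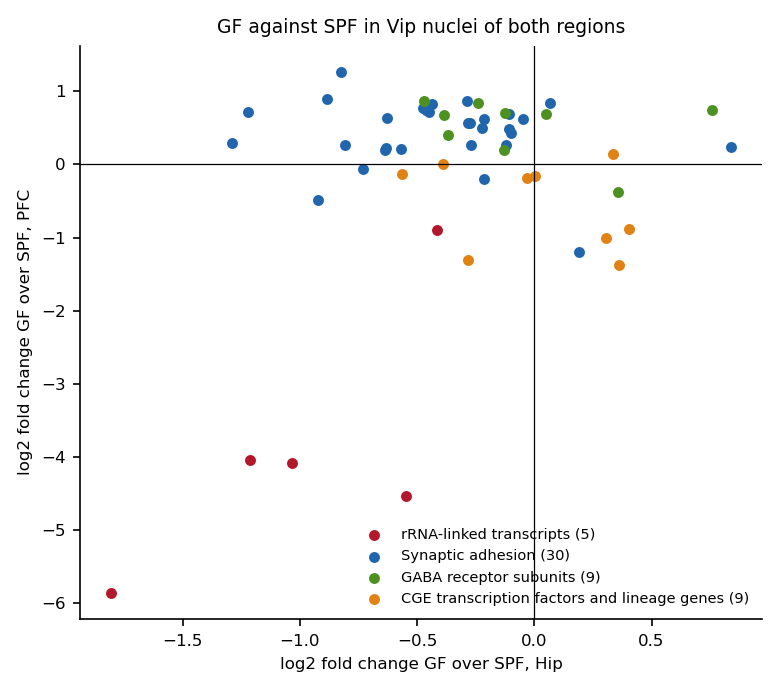
Log2 fold change of GF over SPF mice in Vip nuclei of Hip (horizontal) and PFC (vertical) for the genes of 4 lists tested in both regions; each point is a gene, and the lines mark no change. Most adhesion genes lie above 0 in PFC and below 0 in Hip, and 4 of the ribosomal RNA-linked transcripts lie below −4 in PFC.

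The genes named by the size of their change in PFC were mainly of a few kinds. Genes inside or overlapping a gene of the opposite strand were among the rises. Sorbs2os (chr8:45723325-45819297, GRCm38, minus strand), an antisense transcript that lies wholly inside Sorbs2, had 161 UMIs in GF mice and 0 in SPF mice, at least 11.9-fold. Nrg3os, inside Nrg3, had 527 against 2 UMIs, a ratio of 58.5 with a 95% exact counting interval of 16.1 to 484. P2ry14 lies inside Med12l, Lrtm1 inside Cacna2d3, and Slc24a5 and Kcnq1 overlap Myef2 and Kcnq1ot1 in part. Of the 281 genes that rose 19 lay wholly inside a gene of the opposite strand (6.76%), against 37 of the 2394 tested (1.55%) and 3 of the 307 that fell (0.977%). In Hip 13 of the 143 genes that rose did (9.09%), against 60 of the 2899 tested (2.07%) and none of the 56 that fell. Genes such as Sorbs2os and Nrg3os reached the count minimum in PFC through the GF libraries alone and so could only be called as rises, so the excess among the rises is in part set by that filter. Overlap of any extent was found for 45.6% of the genes that rose in PFC, against 40.8% of those tested, and for 37.1% in Hip, against 41.0%. Nrg3os stood at 154 to 260 CPM in SPF mice of Hip and 414 to 510 in GF mice, and in PFC at 0 to 14.5 and 358 to 519. Whether the reads come from the named gene or from its partner cannot be told from the counts.

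Ube3a, the ubiquitin ligase that is imprinted in neurons, was 130, 99.5 and 70.6 CPM in PFC of SPF mice, 97.2, 91.9 and 167 in CGF mice and 1168, 1142 and 974 in GF mice (log2 fold change 3.58 ± 0.26, edgeR adjusted p = 4.8e-09). In Hip it was 657 to 869 in SPF mice and 996 to 1218 in GF mice (0.61 ± 0.18). Cmss1 was 2781, 2337 and 2876 in PFC of SPF mice and 113, 96.6 and 111 in GF mice (−4.53 ± 0.23), and other falls were those of Lrrc45 (−4.09 ± 0.37), Lars2 (−4.08 ± 0.30), Camk1d (−4.04 ± 0.26) and Peak1 (−3.24 ± 0.34). Il31ra, a cytokine receptor, had 20 UMIs in SPF mice and 1 in GF mice, a ratio of 90.1 with a 95% exact counting interval of 14.4 to 3733. AC149090.1 was 362, 622 and 293 in SPF mice, 97.2, 78.8 and 89.9 in CGF mice and 60.4, 74.3 and 58.2 in GF mice (−2.66 ± 0.27).

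The response to GF rearing was compared between the regions by an interaction term, PFC minus Hip. It called 279 of 3506 genes (7.96% of those tested), 131 (3.74%) with the more positive difference in PFC and 148 (4.22%) with the more negative. Of those 131 genes 28 lay wholly inside a gene of the opposite strand (21.4%), and of the 148 genes 6 did (4.05%). Of all 3506 genes tested 77 did (2.20%). Genes near 0 in PFC of SPF mice could hardly be called downward, so the excess is in part set by that. Of 33 adhesion genes 7 differed upward, such as Erbb4 (1.17 ± 0.22) and Lsamp (1.23 ± 0.25), and 1 downward. Of 11 factors of the caudal eminence list 3 differed downward, such as Dlx1 (−1.77 ± 0.44) and Npas1 (−1.35 ± 0.37), and so did the peptide gene Tac2 (−3.37 ± 0.97). For Cck the interaction was −0.12 ± 0.58 and for Igf1 −0.31 ± 0.34, and neither passed. Leaving out GF mouse 7 gave 128 calls, SPF mouse 30 gave 160 and SPF mouse 31 gave 118, and the libraries that stood apart enter it as they enter the PFC comparison.

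CGF and SPF mice, whose libraries were alike in depth within each region, gave few calls. In Hip 1 of 2899 genes passed (0.0345% of those tested), and none was lower. This was Mid1, a microtubule-associated ubiquitin ligase on the X chromosome, at 83.8, 82.1 and 64.9 CPM in SPF mice, 316, 512 and 472 in CGF mice and 174, 69.6 and 134 in GF mice (CGF over SPF, log2 fold change 2.50 ± 0.30, edgeR adjusted p = 0.000305). In PFC Mid1 overlapped between the groups, at 33.2 to 145 in SPF mice and 51.4 to 236 in CGF mice. The pattern in Hip was not particular to Vip nuclei in these values: Sst nuclei held 22.4 to 31.3 in SPF mice and 317 to 523 in CGF mice.

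In PFC 2 of 2394 genes passed (0.0835%), 1 higher (0.0418%) and 1 lower (0.0418%). Sim2, a basic helix-loop-helix factor, was at 117, 184 and 244 CPM in CGF mice and at 0 in every SPF and GF library, 45 UMIs against 0, at least 16.9-fold over SPF mice (edgeR adjusted p = 0.00642). Sim2 reached the count minimum in PFC through the CGF libraries alone and so could only be called as higher in them. It was also seen in each CGF library of Hip, at 23.7, 11.9 and 11.0, and in Vip nuclei of no other Hip library. Sst nuclei of PFC also held it in CGF mice, at 90.9, 96.2 and 187. AC149090.1 was lower in CGF mice (−2.30 ± 0.34, edgeR adjusted p = 0.00339). The count in Hip was 4 without CGF mouse 18 and 2 without SPF mouse 30 or SPF mouse 32. In PFC Sim2 lost its call when any single SPF or CGF mouse was left out, and AC149090.1 without SPF mouse 31, when the count was 0.

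VIP signalling to the Vip nuclei themselves could hardly be seen at this depth. The receptor genes Vipr1 and Vipr2 stood at 0 to 58.0 and 0 to 12.8 CPM, and Adcyap1, which encodes the related peptide PACAP, at 0 to 14.5. The PACAP receptor gene Adcyap1r1 was present in every library, at 22.9 to 133, and its region difference of 0.34 ± 0.28 on the log2 scale did not pass.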

How the data were processed

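Nuclei of Hip and PFC of 9 mice were profiled with droplet 3' RNA sequencing, and 18 libraries were analysed. The authors deposited raw UMI counts of 30905 genes for barcodes called as cells, made with Cell Ranger 3.1.0 per the file headers and mm10. Whether intronic reads were counted is not given in the sources used here. Exact intervals cover counting error only. Counts of the nuclei chosen by the rule were summed per library and tested with edgeR 4.0.16 (quasi-likelihood, TMM, low counts filtered by filterByExpr) and Benjamini-Hochberg adjustment over all genes tested at 0.05. Library sums of Vip nuclei held 69033 to 532929 UMIs. Region contrasts used all 18 libraries, and group contrasts the 9 of a region. Shares were compared by exact permutation over mice. A likely doublet was a nucleus among the top 0.8% of Scrublet scores per 1000 nuclei of its library. Regions of 1 mouse are paired by design, although deviations of same-numbered libraries correlated at only −0.00276 to 0.0673. The nuclei, gene lists and rules were chosen with earlier results of these data known. Genes named by rule were the 8 largest rises and falls per comparison among called genes whose libraries did not overlap, with a mean of at least 50 CPM in the higher group, without predicted, Rik and mitochondrial genes; others come from the lists, 11 GF region calls, interaction calls and 3 CGF calls were named after their values were seen. Scripts were tested on simulated data. Alternatives were DESeq2 1.42.0, no filter, other Vip and Gad minimums, thinning, doublet removal, removal of a trend on gene length and GC content, pairing, and leaving out each mouse. Promoters came from RefSeq (GRCm38.p6), gene spans from GENCODE release 21 of the mouse. Some items are not reported here.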

Additional observations from a re-analysis of the deposited data

Results flagged for a closer look

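The difference between GF and SPF mice itself differed between the regions for 279 genes (edgeR interaction term, adjusted over all genes tested), 17 of which were among those named by rule for a region. Values are PFC minus Hip on the log2 scale. Of the genes that rose in Hip of GF mice, Caly (−2.07), Mt3 (−1.73) and Rpl14 (−2.93) differed downward in PFC, and Fmn1, which fell in Hip, differed by 1.91. Genes that were near 0 in the PFC libraries of SPF mice differed upward, namely Slc24a5 (6.64), Sorbs2os (6.32), Nrg3os (4.57), P2ry14 (4.15), Lrtm1 (3.72), Kcnq1 (2.89) and Emc10 (2.66), and so did Ube3a (2.93). Slc24a5 and Sorbs2os had 0 UMIs in PFC of SPF mice, so their fitted values are not measured folds. In PFC they were at least 13.3-fold and 11.9-fold higher in GF than in SPF mice. Cmss1 (−4.02), Lrrc45 (−3.40), Lars2 (−3.09), Camk1d (−2.87) and Peak1 (−2.41) differed downward. For these genes the effect of the flora and the difference between the PFC libraries cannot be told apart.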

How the results depend on the processing

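Over the 93 named gene results and 1452 alternatives, the direction never reversed and 102 alternatives lost the call. A result whose gene was not tested in an alternative is not counted there. With Vip nuclei thinned to 1500 UMIs 37 results kept the call, 1 lost it and the rest were not tested. With the GF libraries alone 2 region results kept the call and 13 lost it. Differences of shares between groups did reverse. With nuclei thinned to 3000 UMIs the PFC values were −0.121 points for GF minus SPF, −0.152 for GF minus CGF (2.86 before) and 0.031 for CGF minus SPF (−1.51 before). The Hip value of CGF minus SPF, 0.043, was −0.873 with at least 1 Vip UMI, −0.170 with thinning to 1500, and −0.302 to 0.514 with a mouse left out. The test of shares that passed was the one over the 3 groups, and the points given are GF minus SPF. In Hip it passed with at least 3 Vip UMIs (3.08 points) and with thinning to 1500 and 3000 UMIs (2.51 and 3.16). It also passed there without a Gad minimum (0.286 of all nuclei). In PFC it passed with thinning to 1500 (0.806), as a share of all nuclei (0.496) and without a Gad minimum (0.563). GF against SPF alone gave p = 0.7 by exact permutation in PFC thinned to 1500. There GF minus CGF was 2.85 points and CGF minus SPF −2.05. In each other setting of this list GF against SPF alone gave p = 0.1 by exact permutation. Counts of calls are given in the order region mean, GF, SPF, CGF, then Hip GF-SPF, GF-CGF and CGF-SPF, PFC GF-SPF, GF-CGF and CGF-SPF, and interaction, where they moved by over 1.5 times. With Vip nuclei thinned to 1500 UMIs they were 250, 6, 149, 161, 32, 44, 0, 161, 161, 1 and 47, and for identity 108 in Hip and 153 in PFC. With at least 3 Vip UMIs they were 610 for the mean, 363 for SPF, 400 for CGF, 64 and 113 for GF-SPF and GF-CGF in Hip, 1 for CGF-SPF in PFC and 107 for the interaction. Without a Gad minimum they were 1992, 24, 1322, 1369, 2 for CGF-SPF in Hip, 1783, 1612, 4 and 643. DESeq2 gave 6 for region GF, 79 and 124 in Hip and 185 for the interaction. With the length and GC trend removed they were 5 for region GF, 415 for region CGF, 60 and 54 in Hip and 158 for the interaction. Without a filter they were 39 for region GF, 32 for CGF-SPF in Hip, and 1009, 842 and 5 in PFC. Thinned before the rule, PFC gave 17, 13 and 0, and the other fits were not run because too few nuclei remained. Without likely doublets CGF-SPF in PFC gave 1, and the GF libraries alone gave 14 for the region. Without the library block, identity in PFC gave 234. With the mouse as a replicate block the region gave 479 higher and 481 lower and the interaction 142 and 147, which moved neither count by over 1.5 times. Leaving out each mouse gave 860 to 969 for the region mean, 0 to 13 for GF, 327 to 686 for SPF and 366 to 663 for CGF; 96 to 231, 107 to 326 and 1 to 4 in Hip; 416 to 715, 332 to 585 and 0 to 2 in PFC; 118 to 314 for the interaction; 265 to 309 and 286 to 365 for identity; and shares of 1.43 to 4.25 points in Hip, 0.686 to 2.11 in PFC and 2.82 to 3.69 between regions. The cause of these changes was not tested, and the libraries held 14 to 81 Vip nuclei.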
